A study of Onthophagus taurus with 15 samples.

Results

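Gene expression in the developing thoracic horn was compared with expression in the developing legs of the horned dung beetle Onthophagus taurus. For each of 5 replicate letters (A to E), the thoracic horn ratio to abdomen was taken minus the leg ratio to abdomen of the same letter. All clones with such a difference in at least 4 letters were compared, which gave 3608 of the 3840 cDNA clones on the array, 3255 of them with differences in all 5 letters. The comparison rests on 10 arrays, 5 of thoracic horn and 5 of legs, from a series of 15 that also holds 5 arrays of head horn. The animals were large males of a laboratory colony, taken no later than 24 h into the pupal stage, with no allele, agent or treatment named. Each RNA pool came from 4 pupae. Every array paired 1 appendage with dorsal abdominal epithelium of the same 4 animals, so horn and leg were never on the same array and are compared through abdomen. The appendage carried Cy3 on letters A, C and E and Cy5 on letters B and D in both tissues, so a dye effect that is the same for both tissues cancels in each difference.

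Beetle horns are outgrowths of the body wall that lie outside the jointed limbs. In Onthophagus the thoracic horn rises from the dorsal plate of the first thoracic segment, while legs are ventral and segmented. Horn growth is known to use parts of the limb patterning machinery, among them the transcription factor Distal-less. In O. taurus the thoracic horn of the pupa is known to be resorbed before the adult emerges, whereas the legs persist and differentiate. Setting the thoracic horn against legs therefore asks which transcripts separate an epidermal outgrowth from a jointed limb early in the pupal stage.

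All values below are log ratios, read here as base 2 although no source used here names the base. That a positive ratio stands for more signal from the appendage than from abdomen is probable, because the titles name the appendage first, but is not stated. If the direction were the reverse, every sign below would turn, so that higher in thoracic horn would read higher in legs and above abdomen would read below abdomen. The number of calls, their sizes and their adjusted p would not differ. The clones carry no gene names here, and none of the tissue labels could be checked against marker genes. A clone is an anonymous cDNA, several clones can come from 1 transcript, so the number of clones says nothing of the number of genes. In such dissected tissue, fewer cells of a type and less RNA per cell cannot be told apart.

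Thoracic horn and legs differed in 818 of the 3608 clones (22.7%), by limma on the paired differences with a Benjamini-Hochberg adjusted p under 0.05. The ratio was higher in thoracic horn in 397 clones (11.0%) and higher in legs in 421 (11.7%). With each array centred on its median this balance turned, to 437 clones higher in thoracic horn and 362 higher in legs. Most of the differences were small, with a median of 1.69-fold among clones higher in thoracic horn and 1.58-fold among clones higher in legs. The large ones lay more often on the thoracic horn side, where 116 clones reached 2-fold and 20 reached 4-fold. On the side of legs 80 and 15 did so. This split was not tested, and at 2-fold it was narrower with arrays scaled to 1 spread. Against a difference of 1.5-fold rather than 0, a test chosen after seeing the data, limma called 37 clones on the thoracic horn side and 16 on the leg side. The difference had the same sign in every measured letter in 391 of the 397 and 413 of the 421 clones, against 39.4% of all clones tested. The call rests on these same differences and so nearly fixes this agreement of sign. The number of calls depended on the pairing of letters. With the 10 arrays as unpaired groups and a term for the dye layout it was 367 (180 higher in thoracic horn and 187 in legs). Of these, 364 were among the 818 with the same sign. The number of calls also depended on each letter, at 299 without A, 416 without B, 343 without C, 331 without D and 334 without E.

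**Figure D1:**
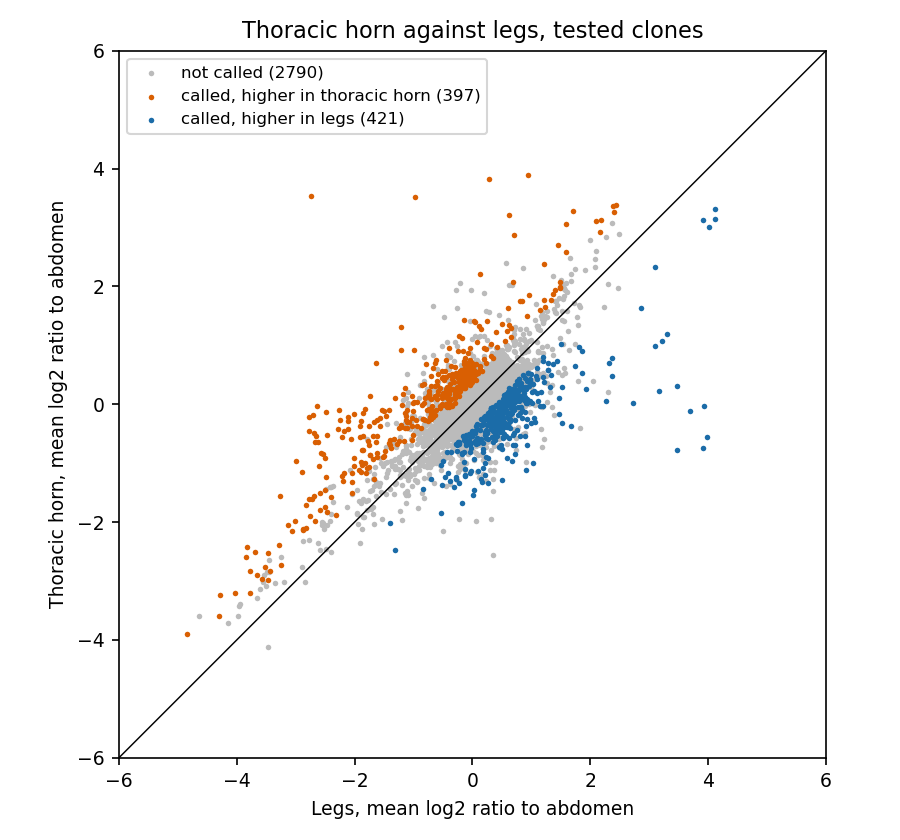
Mean log2 ratio to abdomen of legs (x axis) and thoracic horn (y axis) for the 3608 clones tested, 1 point a clone, with a line of equal ratios. Orange points are the 397 clones called higher in thoracic horn and blue points the 421 called higher in legs; most called clones lie close to the line, and a few stand far from it on either side.

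Among the 12 clones with the largest differences in favour of thoracic horn (5.03-fold to 77.7-fold), 5 stood well above abdomen in the horn. OtL014-H10 showed the largest. Its thoracic horn ratios in letters A to E were 2.71, 4.49, 3.63, 4.48 and 2.40, and its leg ratios were -2.86, -1.42, -5.68, -1.56 and -2.18. All horn arrays were high and all leg arrays low, with leg array C lowest. The paired difference was 6.28 ± 0.65 (SE, n = 5, 77.7-fold, adjusted p = 0.00426 by limma), and 5.52 without letter C. OtP012-E12 had horn ratios of 4.02, 3.50, 3.14, 3.61 and 3.34 and leg ratios of -1.15, -0.15, -2.56, -0.35 and -0.66. The horn arrays of this clone were close together and the leg arrays more spread, and the groups did not overlap. The difference was 4.50 ± 0.33 (SE, n = 5, 22.6-fold, adjusted p = 0.00143 by limma).

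The other 3 of these 5 clones were high in the horn and near or moderately above abdomen in legs. OtP011-E02 stood at 4.03, 3.82, 4.13, 3.55 and 3.54 in the horn and at -1.21, 1.31, 0.55, 0.27 and 0.46 in legs. Its horn arrays agreed closely, and leg array A was lower than the other leg arrays. The difference was 3.54 ± 0.38 (SE, n = 5, 11.6-fold, adjusted p = 0.00442 by limma). OtL002-E05 had horn ratios of 3.62, 4.23, 3.81, 4.41 and 3.42 and leg ratios of 0.18, 1.13, 1.02, 1.95 and 0.46. In this clone both tissues were above abdomen, and the difference of 2.95 ± 0.16 (SE, n = 5, 7.72-fold, adjusted p = 6.12e-04 by limma) was positive in 5 of 5 letters. OtP015-A03 had the least spread, with horn ratios of 3.29, 3.32, 3.22, 3.08 and 3.16 and leg ratios of 0.87, 0.69, 0.18, 0.73 and 0.66. Its difference was 2.59 ± 0.13 (SE, n = 5, 6.01-fold, adjusted p = 5.26e-04 by limma), and the highest t of any clone on the thoracic horn side.

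In 5 others of the 12, the horn lay near abdomen and the legs well below it. OtL010-E04 had horn ratios of -0.41, 0.24, -0.16, -0.62 and 0.07 and leg ratios of -2.95, -2.0, -2.91, -2.62 and -3.02. Between thoracic horn and legs, only the leg arrays departed from abdomen, and the difference was 2.52 ± 0.18 (SE, n = 5, adjusted p = 0.00115 by limma). OtL019-G12 (2.61 ± 0.25, SE), OtP010-E03 (2.56 ± 0.18), OtL009-D02 (2.35 ± 0.21) and OtL006-H11 (2.33 ± 0.18) showed the same arrangement. Their horn means ran from -0.45 to -0.03 and their leg means from -2.78 to -2.48, and in none did the groups overlap. OtL010-H05, which had 1 of the 3 highest t on this side, belonged here too, at -0.54 ± 0.34 (SD, n = 5) in the horn and -2.65 ± 0.45 in legs. In all 6 clones legs were called below abdomen, and of their horn ratios only that of OtL010-H05 was.

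OtL001-G02 and OtL017-G01 completed the 12, with the horn above and the legs below abdomen. OtL001-G02 stood at 1.61, 0.81, 0.72, 0.67 and 2.79 in the horn and at -1.34, -1.03, -2.0, -1.11 and -0.61 in legs. Its difference was 2.54 ± 0.27 (SE, n = 5, adjusted p = 0.00431 by limma), and each tissue was called against abdomen. OtL017-G01 differed by 2.34 ± 0.27 (SE, n = 5, adjusted p = 0.00543), but its horn mean of 0.69 ± 0.83 (SD, n = 5) was not called against abdomen. In 11 clones (0.30% of those tested) the horn was called above and the legs below abdomen, with OtL014-H10, OtL001-G02 and OtL001-F09 differing most. OtL001-F09 had horn ratios of 0.92, 1.45, 0.54, 0.37 and 1.36 and leg ratios of -0.82, -0.80, -1.57, -1.61 and -1.22.

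On the side of legs, the 12 largest differences ran from 3.67-fold to 25.2-fold. In 7 of these clones the leg mean was 3.17 to 3.99 and the horn was not called against abdomen. OtP013-D01 had leg ratios of 3.48, 4.52, 3.79, 3.61 and 4.13 and horn ratios of -0.29, -0.83, -0.43, -1.78 and -0.41. Every leg array was high and every horn array below 0, and the difference was -4.65 ± 0.27 (SE, n = 5, 25.2-fold, adjusted p = 8.63e-04 by limma). OtP013-D04 had leg ratios of 3.25, 4.76, 3.55, 3.81 and 4.57 and horn ratios of 0.23, -0.84, -0.38, 0.09 and -1.89. The difference was -4.55 ± 0.52 (SE, n = 5, 23.4-fold, adjusted p = 0.00527). Letter E gave the widest gap of this clone, -6.46, and letter A the narrowest, -3.02. OtP014-A08 had leg ratios of 3.22, 4.51, 3.73, 3.73 and 4.50 and horn ratios of -0.19, 0.65, 0.26, 0.17 and -1.0. Its leg arrays followed those of OtP013-D04, with B and E highest in both clones, and its difference was -3.96 ± 0.33 (SE, n = 5, 15.6-fold, adjusted p = 0.00206).

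OtP005-A01, OtP001-H02 and OtL014-A09 had the 3 lowest t of all clones. OtP005-A01 had leg ratios of 3.31, 3.80, 3.65, 3.53 and 4.17 and horn ratios of -0.23, 0.19, 0.21, -0.99 and 0.24. The difference was -3.81 ± 0.18 (SE, n = 5, 14.0-fold, adjusted p = 5.26e-04 by limma). OtP001-H02 had leg ratios of 3.27, 3.55, 3.35, 3.38 and 3.78 and horn ratios of 0.26, 0.82, 0.02, 0.08 and 0.35. Its arrays were tight in both tissues, and the difference was -3.16 ± 0.13 (SE, n = 5, 8.96-fold, adjusted p = 4.55e-04). OtL014-A09 had leg ratios of 2.91, 3.73, 2.62, 3.43 and 3.17 and horn ratios of 0.25, 0.97, -0.30, 0.21 and 0.01. The difference was -2.94 ± 0.12 (SE, n = 5, 7.70-fold, adjusted p = 4.55e-04). OtL003-A11 was high in legs (3.47 ± 0.39, SD, n = 5) and uneven in the horn, from -3.59 in letter E to 1.33 in letter B. Its difference of -4.25 ± 0.60 (SE, adjusted p = 0.00907 by limma) became -3.59 without letter E.

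The remaining 5 clones of the leg side had lower leg means or a horn called against abdomen. OtP001-F11 and OtP009-F09 were above abdomen in legs on every array, at 2.93 to 3.75 and 2.66 to 3.77. In the horn both lay lower on letters A, D and E and higher on B and C. OtP001-F11 read 0.44, 1.65, 2.87, 0.58 and 0.39 there and OtP009-F09 read 0.23, 1.47, 2.53, 0.44 and 0.27. On letter C the gap between horn and legs was only -0.26 and -0.18. Their differences, -2.12 ± 0.40 and -2.10 ± 0.41 (SE, n = 5, adjusted p = 0.0184 and 0.0199 by limma), were not called once any single letter other than C was left out, and the adjusted p then lay between 0.0532 and 0.0704. OtL004-E08 ranged from -3.71 to 2.01 in the horn and from -0.98 to 4.58 in legs, so its groups overlapped, yet legs were higher in 5 of 5 letters, by 1.44 to 2.72. It was called only through the pairing (-2.04 ± 0.23, SE, adjusted p = 0.00488, against 0.202 unpaired, both by limma). OtP011-G01 (-1.88 ± 0.26, SE) had a leg mean of 2.36 and a horn mean of 0.49 that was not called against abdomen.

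OtP019-E06 was below abdomen in the horn and above it in legs. Its horn ratios were -1.25, -0.56, -1.63, -0.50 and -1.04 and its leg ratios 1.56, 0.75, 0.63, 1.49 and 0.73, with a difference of -2.03 ± 0.22 (SE, n = 5, adjusted p = 0.00442 by limma). In 17 clones (0.47% of those tested) the horn was called below and the legs above abdomen, with OtP019-E06, OtP003-H08 and OtP017-A12 differing most. OtP003-H08 stood at -0.68 ± 0.37 in the horn and 0.92 ± 0.61 in legs (SD, n = 5), and its difference of -1.61 ± 0.28 (SE) was not called without letter A or E (adjusted p = 0.0582 and 0.0537 by limma). OtP017-A12 stood at -0.84 ± 0.73 in the horn and 0.72 ± 0.55 in legs.

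**Figure D2:**
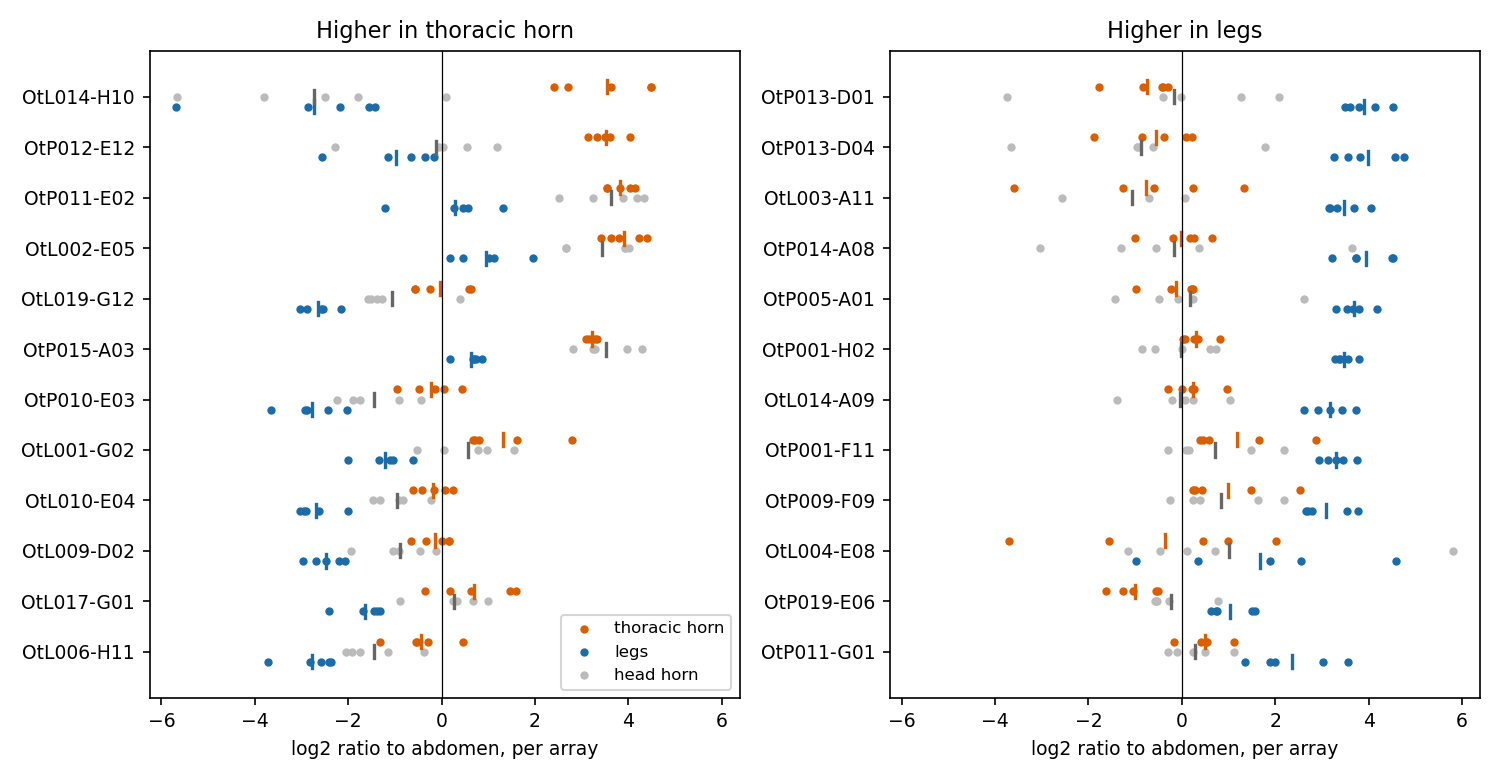
Log2 ratio to abdomen on each array for the 12 clones with the largest called differences in favour of thoracic horn (left) and of legs (right), with 1 point an array and a bar at the mean of each tissue. Thoracic horn (orange) and legs (blue) are apart in every clone but OtL004-E08, and head horn (grey) is shown for comparison.

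Several of these clones had nearly the same profile over the 10 arrays. OtP013-D01 and OtP005-A01 correlated at 0.991, OtP001-F11 and OtP009-F09 at 0.990, OtP005-A01 and OtP001-H02 at 0.986, and OtP013-D04 and OtP014-A08 at 0.979 (Pearson's r). For the other clones among the 24, the most alike of all tested clones correlated at 0.949 to 0.986. These are descriptions over 10 arrays that share the contrast of horn and legs, which alone makes clones with large differences correlate. Whether such clones come from the same transcript was not tested, since no sequence of them was used here.

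The called clones were then placed by the call of each tissue against abdomen, from a limma fit to all 15 arrays. That fit had no term for the letter, although same-letter horn and leg arrays were correlated. It also took a shared variance for each clone over thoracic horn, legs and head horn. A clone uneven in head horn can therefore lack a call in thoracic horn. In OtP013-D01 the SE of the thoracic horn ratio in that fit was 0.59. The SD of this clone was 0.61 in thoracic horn and 2.24 in head horn. Among the clones of the comparison with a value in that fit, thoracic horn was called above abdomen in 17.6% and below in 18.1%, and legs in 23.2% and 18.3%. Of the 397 clones higher in thoracic horn, the horn was called above abdomen in 139 and below it in 93, and legs below abdomen in 217. Of the 421 clones higher in legs, legs were called above abdomen in 254, while the horn was called below in 112. In 270 of the 421 (64.1%) the horn was not called, a share near that of all clones in that fit. Among the clones that differed at least 2-fold, legs were called below abdomen in 84 of the 116 higher in thoracic horn. Legs were called above abdomen in 50 of the 80 higher in legs, and in those 80 the horn was not called in 40 and called below in 34. The single commonest arrangement was a leg ratio above abdomen with the horn not called, in 198 of the 421 clones (47.0%). Of all clones tested, 12.3% had this arrangement. These calls use the same leg and horn arrays as the comparison itself and are no separate evidence for it.

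**Figure D3:**
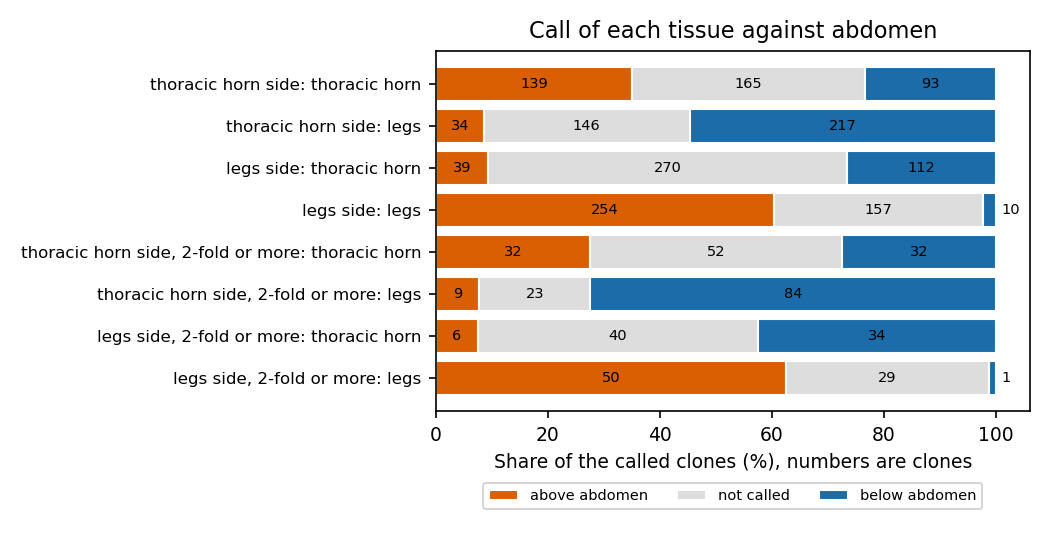
Share of the called clones (x axis, %) whose thoracic horn or leg ratio was called above abdomen (orange), not called (grey) or called below abdomen (blue), for the 397 clones on the thoracic horn side and the 421 on the leg side, then for the 116 and 80 clones that differed at least 2-fold. Each bar names the side of the clones first and then the tissue, and printed numbers are clones.

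Some clones far from abdomen in both tissues differed in degree between them. Of 51 clones at least 4-fold below abdomen in both, the ratio was less negative in thoracic horn in 48, with a median difference of 0.57, against -0.03 over all clones. The test called 22 of the 51 higher in thoracic horn and none higher in legs, where 11.0% of all clones were called in that direction. With arrays scaled to 1 spread, 43 of the 51 were less negative in the horn, 9 were called and the median difference was 0.29, where 9.04% of all clones were called in that direction. With unpaired letters 10 of the 51 were called, where 4.99% of all clones were. Of 18 clones at least 4-fold above abdomen in both, 6 were called higher in thoracic horn and 5 higher in legs. Of all clones, 11.7% were called higher in legs. The 5 higher in legs, named after their values were seen, were OtL012-B01 (-1.01 ± 0.16, SE), OtL006-D08 (-0.97 ± 0.16), OtP013-D03 (-0.79 ± 0.16), OtL009-F10 (-0.79 ± 0.22) and OtP003-E03 (-0.77 ± 0.09). With arrays scaled to 1 spread none of the 18 was called higher in legs, where 9.76% of all clones were, and 5 were called higher in thoracic horn. Without pairing none of the 18 was called in either direction, where 5.18% of all clones were called higher in legs.

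A small difference could be bounded for about 1 clone in 3. The 95% interval of the difference lay within 1.5-fold either way in 1247 clones (34.6%). The median half-width of that interval was 0.35 on the log2 scale, or 1.28-fold. Of the 2790 clones not called, the interval reached past 2-fold in 649, so a 2-fold difference was not excluded there. In 97 of the 2790 the fitted difference itself was at least 2-fold. The intervals are not adjusted for the number of clones, as the calls are, so the interval of a clone not called can leave out 0. Only 4 clones were both bounded in this way and at least 4-fold from abdomen in the 2 tissues, all of them below it. OtL009-G08 had horn ratios of -2.40, -2.10, -3.30, -2.54 and -1.97 and leg ratios of -2.12, -2.38, -3.16, -2.38 and -2.35. Its difference was 0.02, with an interval from -0.31 to 0.35, and -0.22 with arrays scaled to 1 spread. OtL007-E02 differed by 0.10 (-0.23 to 0.43), or -0.16 when scaled, and OtL006-H08 by 0.27 (-0.02 to 0.56). The fourth, OtP016-A10, is named after its values were seen and differed by -0.10 (-0.43 to 0.22).

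Head horn, the other horn of the series, was close to thoracic horn in some of these clones, between it and legs in others, and close to legs in OtL014-H10. The comparisons below share the thoracic horn or the leg arrays with the main one, so the values are given side by side only. Thoracic horn minus head horn, paired by letter, was called in 3 of the 12 clones of the thoracic horn side, where 0.695% of all clones were called. In 8 of the 12 the unadjusted p by limma was under 0.05. In OtL014-H10 head horn stood at -2.73 ± 2.16 (SD, n = 5), 6.27 below thoracic horn (adjusted p = 0.0334 by limma). In OtP012-E12 it stood at -0.12 ± 1.31, 3.63 below thoracic horn (adjusted p = 0.0357). In OtP010-E03 it stood at -1.45 ± 0.75, between both, 1.23 below thoracic horn (adjusted p = 0.0357). OtL019-G12, OtL010-E04, OtL009-D02 and OtL006-H11 also had head horn means between both, at -1.07, -0.95, -0.90 and -1.45, without a call between the horns. OtP011-E02, OtL002-E05 and OtP015-A03 were high in head horn too, at 3.64 ± 0.75, 3.43 ± 0.71 and 3.52 ± 0.59. The 95% intervals of thoracic minus head horn were -0.47 to 0.83, 0.04 to 0.89 and -0.89 to 0.28 for these 3 clones.

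Of the 12 clones on the leg side, 11 could be tested between the horns. None was called by limma, and 2 had an unadjusted p under 0.05. The intervals were narrow for some, such as OtP001-H02 (-0.15 to 0.80) and OtL014-A09 (-0.19 to 0.74), and wide for others, such as OtP014-A08 (-2.0 to 2.32) and OtP013-D01 (-2.68 to 1.52). The head horn arrays of OtP013-D01 read 2.08, 1.27, -3.75, -0.03 and -0.40, a spread not seen in its thoracic horn or leg arrays. Head horn minus legs was called in 10 of the 11 clones, and in 11 of the 12 on the thoracic horn side, where 15.1% of all clones were called. OtL014-H10 was the exception there, at 0.01 ± 0.68 (SE), and OtL004-E08 on the leg side, at -0.67 ± 0.47 (SE).

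Single-letter differences between thoracic horn and legs hold array noise besides the difference between the tissues. Over the tested clones their root mean square was 0.85, 0.68, 0.96, 0.86 and 0.82 on the log2 scale in letters A to E. Single letters correlated with each other over clones at 0.42 to 0.47 when the dye layout was the same and at 0.41 to 0.49 when it was opposite. These correlations are descriptions over clones, which are not independent replicates. The mean difference of letters A, C and E correlated at 0.70 with that of letters B and D, which hold other arrays, over 3255 clones. A term for the dye layout in the paired differences was called in no clone by limma, with 160 clones at an unadjusted p under 0.05 among 3608. With so few letters in each layout, the absence of calls does not show that the layouts agree. Fitted alone, letters A, C and E gave 58 calls among 3573 clones and letters B and D 2 calls among 3328. Letter D was the least complete, with 321 empty clones in thoracic horn and 329 in legs, against 32 to 120 on the other 8 arrays.

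**Figure D4:**
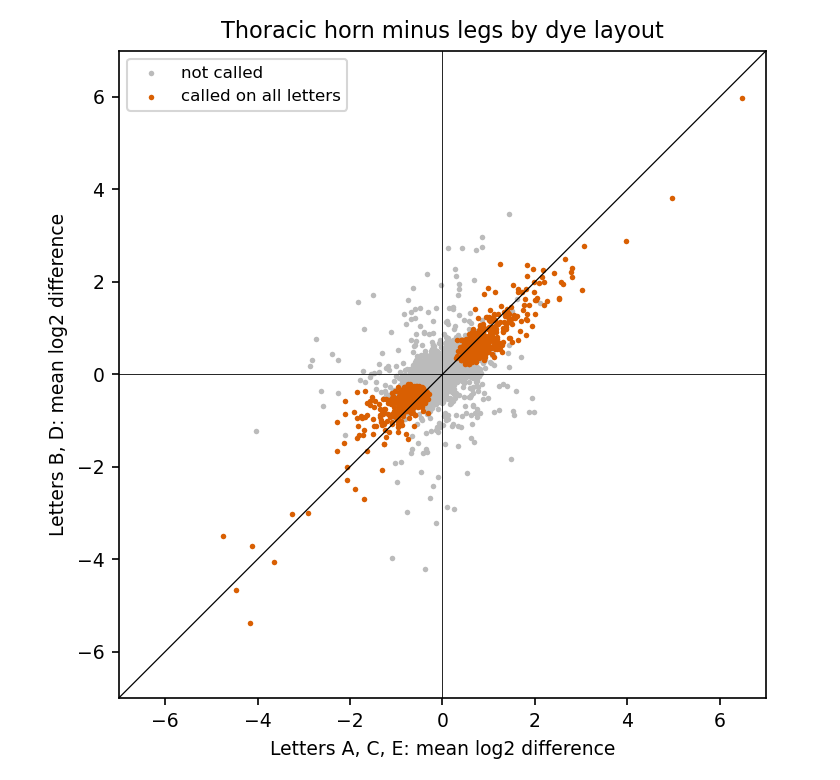
Mean log2 difference between thoracic horn and legs over letters A, C and E (x axis, appendage in Cy3) and over letters B and D (y axis, appendage in Cy5), 1 point for each of 3255 clones with all 5 letters. Orange points were called on all letters together, a choice that itself favours points near the diagonal, which marks equal differences.

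The clones fall in equal numbers under the prefixes OtL and OtP, whose meaning the sources used here do not give. Calls made up 23.8% of 1839 tested OtL clones and 21.5% of 1769 tested OtP clones. Among calls of at least 2-fold, OtL clones were mostly higher in thoracic horn, 73 against 24, while OtP clones were more often higher in legs, 56 against 43. With arrays centred on their medians these splits were 79 against 20 and 54 against 47, and with unpaired letters 59 against 19 and 43 against 30. The split by prefix was not tested. All calls together showed less of this, with 223 OtL clones higher in thoracic horn and 215 in legs, and 174 and 206 OtP clones. Of the 24 extreme clones, 8 OtL and 4 OtP clones were on the thoracic horn side and 3 OtL and 9 OtP clones on the leg side. Calls were spread over all 40 plates of clones, from 14.6% of the tested clones of a plate to 34.1%.

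The comparison leaves out 232 clones with differences in fewer than 4 letters. Plate 2 of the OtP clones held 33 of them, and 16 came from plate 2 of the OtL clones. In 3 clones at least 4 thoracic horn arrays but at most 1 leg array had a value, and 1 clone showed the reverse. OtP002-G01 read 4.28, -2.28, 6.32 and 2.52 in thoracic horn letters A, B, C and E and -0.23 in leg letter E. OtP002-E12 read -2.33, 4.28, -5.86 and 3.66 in thoracic horn letters B, C, D and E and 2.17 in leg letter A. OtP012-A05 lay between -1.46 and -0.16 in the horn and at -1.09 on its only leg array. OtP002-F08 read 2.51, -4.12, 2.69 and -5.83 in leg letters A to D and 5.97 in thoracic horn letter C. In the 3 clones of plate 2 the sign followed the dye, positive with the appendage in Cy3 and negative in Cy5, except for leg letter E of OtP002-G01. Neither tissue can be ranked above the other in these clones.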

How the data were processed

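RNA was amplified with T7 polymerase before labelling, per the labels' protocols, so the ratios are of amplified RNA. The deposited table holds 1 log ratio per clone and array, read here as log2, and the submitters' processing notes name limma without saying for which step. How background and dyes were treated, which log base was used and why 1206 cells of the 10 arrays are empty is not given in the sources used here. Scanner intensities were not used here, and the number of arrays limits the precision.

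Differences of same-letter arrays were tested against 0 with an intercept fit and moderated variance (limma 3.58.1, R 4.3.3), and p-values were adjusted by Benjamini-Hochberg over all clones tested. Intervals are limma's 95% intervals. The pairing follows the letters in the array titles, which do not tie animals together across arrays. Deviations of same-letter horn and leg arrays from their tissue means correlated at 0.45 to 0.65 in 5 of 5 letters. Arrays of other letters with the same dye layout correlated at -4.3e-04 to 0.22. Taken within the dye layout, the same-letter values were 0.26 to 0.44. There, letters B and D share a single value, since their deviations mirror each other. Ratios against abdomen came from 1 fit to 15 arrays with a coefficient for each tissue and a shared layout term, over clones with at least 3 arrays of each tissue. That fit held no term for the letter. Paired differences with head horn were fitted like the main ones.

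Named clones are the 12 highest and 12 lowest called differences with 5 letters of 1 sign, the 3 highest and lowest t, the 3 on each side with opposite calls against abdomen, up to 3 bounded clones on each side, and clones measured in 1 tissue. The members and rules were chosen with earlier results of these data known. None of the 3840 clone names (0) matched the RefSeq table of 16956 genes. The scripts were tested on simulated data. Figures used matplotlib 3.10.9. Alternatives covered pairing, scaling, filters, shrinkage, letters and layouts. The fits with unpaired letters and with a random replicate block held a term for the dye layout.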

Additional observations from a re-analysis of the deposited data

Results flagged for a closer look

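Letter D stood apart in its empty values, with 321 clones empty in thoracic horn and 329 in legs, and its leg array had the highest median ratio, 0.15 on the log2 scale. Among the named clones, OtL010-H05 read -1.11 on thoracic horn array A, below the other horn arrays at -0.49 to -0.24, and its difference from legs was 2.20 in that letter and 1.88 to 2.35 in the others. OtL009-G08 read -3.16 on leg array C, where its horn array was lowest too, at -3.30. Each of these 5 values lay farther from its group than Dixon's 95% limit allows, out of 72 groups examined, and chance flags about 1 group in 20.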

How the results depend on the processing

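The count of 818 called clones was within 1.5 times under a random replicate block (948), a fixed replicate block on 15 arrays (995), centred (799) or scaled arrays (678), all 5 letters (947), at least 3 letters (749) and robust shrinkage (803). It was 367 with no replicate block, 484 without shrinkage of the variance, 58 on letters A, C and E (1057 clones at an unadjusted p under 0.05), 2 on letters B and D (615) and 53 against a 1.5-fold threshold. With letters B and D turned in sign, as if the deposited values had not been turned for the dye flips, limma called 0 clones and 81 had an unadjusted p under 0.05. Leaving out 1 letter gave 299 to 416 calls. Fits to fewer letters have fewer differences to test, and the causes of the other changes were not tested. The 196 called clones at least 2-fold apart became 126 without shrinkage, 58 with letters B and D left out and 2 with only these letters. The 1247 clones bounded within 1.5-fold became 455 with letters B and D left out and 394 with only these letters. No called named clone changed sign, which their choice by size and sign nearly fixes. Of the bounded clones, OtL007-E02 changed sign with scaled arrays (-0.16), and OtL009-G08 with scaled arrays (-0.22), on letters A, C and E (-0.01), and without letter B (-0.05) or E (-0.08).

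Of the 24 extreme clones, 8 lost their call with B and D left out and 22 with A, C and E left out. OtP001-F11 and OtP009-F09 were also not called without shrinkage, nor was OtP003-H08. The signal behind each ratio is unknown.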

Other observations

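In 53 of the 3255 clones with values on all 10 arrays, the sign of the ratio followed the dye layout in both tissues, 20 with positive ratios wherever the appendage was in Cy3 and 33 with the reverse. By comparison, 371 clones were positive and 409 negative on every array. Between thoracic horn and legs 2 of the 53 were called (3.77%), against 797 of the 3255. The 53 were picked for the same sign in horn and legs on every letter, which bears on how often they are called. The dye layout and the letters coincide by design, so dye bias and a difference between the 2 sets of pupae cannot be told apart.

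The 3 clones whose difference between thoracic horn and legs varied most between letters were picked after their values were seen. OtP005-A07 read 6.20 on leg array D and -0.66 to 0.29 on the other leg arrays, and its difference was -7.87 in letter D and -1.33 to 0.37 in the others. OtL007-C08 read -6.10 on thoracic horn array C and -0.95 to 1.01 on the others, and its difference was -6.91 in letter C and -0.67 to 1.13 in the others. OtL008-D03 read 4.92 on leg array D and -1.61 to 1.62 on the other leg arrays, and its difference was -6.72 in letter D and -1.43 to 1.27 in the others. None of these 3 clones was called (adjusted p = 0.283, 0.421 and 0.401 by limma), and the cause was not tested.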
